A study of Gallus gallus with 54 samples.

Results

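The heat shock proteins and co-chaperones of the chick retina were taken as every gene whose symbol begins with HSPA, HSPB, HSPH, HSPD, HSPE, HSPG, HSP90, DNAJA, DNAJB, DNAJC, BAG, FKBP or CCT followed by a digit, and whose mean level reached 1 CPM (counts per M counts of the library). Of 83 symbols that matched, 77 reached that level, among 24599 gene names in the table. The level was the only measured value in this rule, which was set with earlier results of these data known. HSPB9 lay just inside the limit at 3.32 CPM, and HSPB2 lay just outside it at 0.936 CPM. The other genes below it were FKBP11, FKBP6, HSPB3, HSPB7 and DNAJB8. All 77 members also passed the filter on low counts used for testing. HSPG2, which encodes the basement membrane proteoglycan perlecan, and HSPB11, which encodes a protein of intraflagellar transport, matched by name and are not chaperones.

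Heat shock proteins bind unfolded or partly folded proteins and hold, fold or hand them on. HSP70 proteins do so in cycles of ATP use that J proteins (the DNAJ genes) start and that exchange factors, such as the HSP110 proteins and the BAG proteins, end. HSP90 receives clients such as steroid receptors and kinases from HSP70 together with FKBP co-chaperones, and the CCT chaperonin folds actin and tubulin. In a stressed cell the transcription factor HSF1 raises many of these genes together, while misfolding in the endoplasmic reticulum (ER) raises the ER members, such as HSPA5, through the unfolded protein response. Photoreceptors make large amounts of membrane protein each day and carry a high load of such folding work.

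RNA from whole retinae of male White Leghorn chicks was sequenced in 54 libraries, in 14 groups that combine 7 conditions with 2 times after the start of treatment, 4 h and 24 h. All birds were reared for 6 days on a cycle with 12 h of light, and retinae were collected on day 7 after hatching in the 4 h groups and on day 8 in the 24 h groups. In 4 conditions the eye wore a translucent diffuser, which causes form-deprivation myopia (FDM), and also received an intravitreal drug: atropine or pirenzepine, which block muscarinic receptors, ADTN, an agonist at dopamine receptors, or TPMPA, which blocks GABA-C receptors. In recovery, a diffuser had been worn for 3 days and was then removed 4 h or 24 h before collection. The remaining conditions were FDM with no injection and age-matched untreated birds. Injected eyes of the 24 h groups had a second injection 4 h before collection. There were 4 libraries a group, but 3 in recovery at 4 h and in untreated at 24 h. No vehicle-injected group is used here, so the effect of a drug and that of its injection cannot be told apart. The labels do not say how many birds a library represents, and p-values measure the spread between these samples.

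Library totals ran from 7.4 to 24.8 M counts, with a median of 14.8 M. Retinal markers were present in every library: the summed level of 10 photoreceptor genes ran from 2030 to 3900 CPM and that of 8 Müller glia genes from 2200 to 4190 CPM. Libraries are named by group and replicate number. The library of ADTN at 24 h, replicate 4, had 9.97 M counts and stood apart, with the highest level of all 54 libraries for 16 of the 77 members and the lowest for 5. Recovery at 4 h, replicate 2, had the highest level for 5 members and a summed level of 8 pericyte and smooth muscle genes of 654.4 CPM, against 8.6 and 8.91 CPM in the other recovery libraries of that time. In bulk tissue, fewer cells of a type and less RNA per cell cannot be told apart.

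The chaperones were ranked by counts per length, as mean CPM per kb of transcript over the 54 libraries. The cytosolic HSP90AA1 had 479 CPM per kb and the constitutive HSP70 HSPA8 had 428 CPM per kb. The next 4 members were HSP90B1 (the ER HSP90, 190 CPM per kb), HSPA5 (the ER HSP70, also called BiP, 140 CPM per kb), FKBP12 (the receptor of FK506 and rapamycin, 138 CPM per kb) and HSPA4L (an HSP110 exchange factor, 136 CPM per kb). HSPA5, FKBP12 and HSPA4L did not differ beyond their spread over libraries. At the other end stood HSPG2 with 5.37, HSPB1 with 5.28 and HSPB9 with 3.79 CPM per kb. HSPB1 and HSPB9 are small heat shock proteins, which hold unfolded proteins without ATP. Their ranges over libraries overlapped.

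Summed over members, the HSP70 class had 870 CPM per kb in 7 genes, the J proteins of class C 779 in 21 genes, HSP90 700 in 3 genes and the CCT subunits 588 in 6 genes. The 11 FKBP genes had 542 CPM per kb, and the J proteins of classes B and A had 362 in 9 genes and 347 in 4 genes. The HSP110 class had 276 CPM per kb in 3 genes, and the mitochondrial chaperonin pair 149. BAG genes had 91.9 CPM per kb in 4 genes, and the 3 small heat shock proteins 31.9. The 4 remaining genes, among them HSPG2 and the HSP70-binding HSPBP1, summed to 57.1 CPM per kb. The 6 CCT subunits lay close together, between 81.6 and 110 CPM per kb, while the J proteins of class C spread from 12.8 (DNAJC28) to 111 (DNAJC8) CPM per kb. The constitutive cytosolic HSP90AB1 had 31.2 CPM per kb, well below its paralog HSP90AA1. The HSP70 and HSP90 sums include HSPA8 and HSP90AA1, whose CPM was lower in the deeper libraries of a group, as described below. Their levels and these sums thus depend on library depth.

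**Figure D1:**
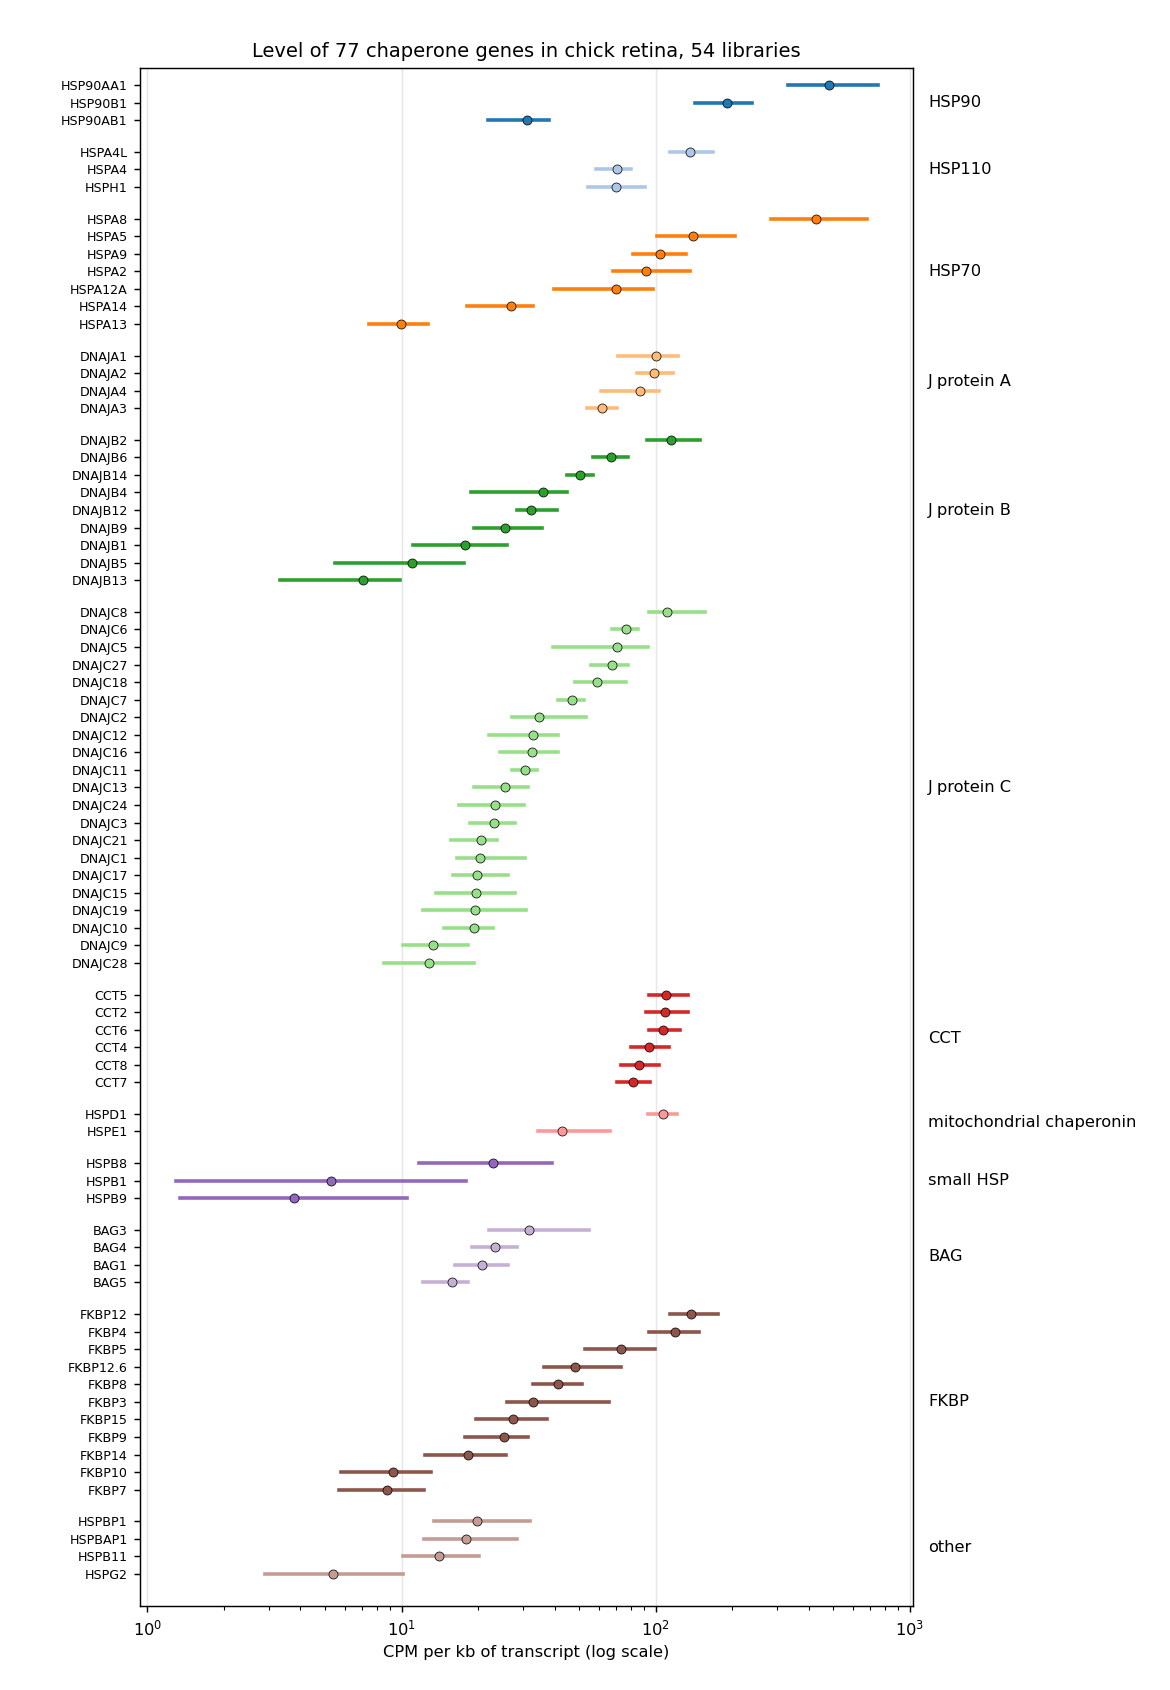
Level of each of the 77 members as CPM per kb of transcript (log axis), grouped by class. Points are means over 54 libraries and bars run from the lowest to the highest library. HSP90AA1 (479) and HSPA8 (428) lie far right, and the small heat shock proteins HSPB1 (5.28) and HSPB9 (3.79) have the lowest means and long bars.

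The levels held steady from library to library. The median SD of log2 CPM within groups was 0.16 for the members and 0.23 for all 15746 genes tested. These sets were not matched for level, so a smaller SD was not shown to be a trait of chaperones. DNAJC6, the neuronal J protein auxilin that uncoats clathrin vesicles, had the smallest SD, 0.06, and DNAJC7 had 0.07. The most variable members were HSPB1 with 0.79, HSPB9 with 0.54, HSPG2 with 0.43 and HSPB8, a small heat shock protein that works with BAG3, with 0.36. HSPB9 had from 14 to 194 counts per library and HSPB1 from 12 to 214, so counting error adds to their spread. BAG3 had from 402 to 2854. HSPB1 had its highest level of all libraries, 13.4 CPM, in recovery at 4 h, replicate 2, against 0.96 and 3.85 CPM in the other libraries of that group. In untreated eyes at 4 h HSPB1 had 5.32, 3.83, 4.43 and 1.76 CPM. The groups overlapped, and HSPB1 passed no test.

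The HSP90AA1 and HSPA8 counts did not keep pace with library depth. A gene whose count is proportional to the library total has a slope of 1 between log count and log total. Slopes were taken within groups, after each group's mean was subtracted from both. HSP90AA1 had a slope of 0.44 and HSPA8 a slope of 0.39, against a median of 1.01 over the members and 1.12 over all genes. They were the only members with a slope under 0.75, as were 7.54% of all genes. These members also had the most counts per base of transcript, 7.09 and 6.31. Across the 54 libraries, with group means subtracted, their log2 CPM had a correlation of -0.95 with log2 total count. It is a description of libraries that share this scaling. In 15 of 77 members that correlation was below -0.5, a larger share than the 5.04% of all genes. The members and all genes were not matched for level.

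**Figure D2:**
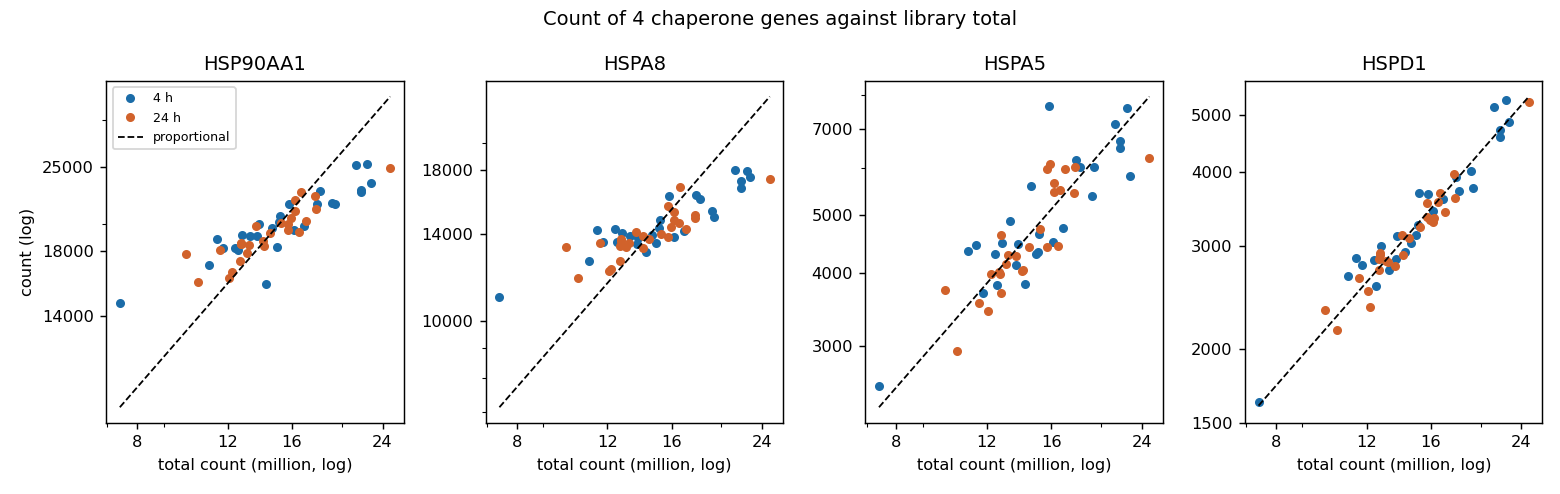
Count against library total in M counts (both axes log) for HSP90AA1, HSPA8, HSPA5 and HSPD1 in 54 libraries, coloured by time. The dashed line is a proportional rise through the mean. HSP90AA1 (slope 0.44) and HSPA8 (0.39) rise more flatly than the line, HSPA5 has a slope of 0.78 and HSPD1, with 0.95, follows it closely. Slopes were computed with each group's mean subtracted, while the points are not so adjusted.

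Form deprivation alone was compared with no treatment at each time. The chaperones did not pass the test at either time. At 4 h, 0 of 77 members passed at an adjusted p under 0.05 by edgeR's quasi-likelihood test, and 0 by DESeq2, where edgeR called 0.171% of all genes. At an unadjusted p under 0.05 there were 7 members, all higher in FDM, or 9.09%, against 6.97% of all genes. At 24 h, 0 of 77 passed by either tool and 4 had an unadjusted p under 0.05, as did 7.21% of all genes, of which 0% were called. The median log2 difference over the members was 0.02 at 4 h, against -0.01 over all genes, and 0.00 at 24 h. The 95% intervals of 70 of 77 members at 4 h, and 66 at 24 h, lay within a 1.5-fold change either way. Averaged over both times, 0 members passed by either tool, with 1 at an unadjusted p under 0.05 (5.76% of all genes), and 0.102% of all genes passed.

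The member with the largest positive difference at 4 h was HSP90AA1. It had 1425.9, 2085.3, 1314.9 and 1586.4 CPM in FDM, against 1176.5, 996.2, 1225.7 and 1447.5 CPM in untreated retinae. FDM replicate 2, the shallowest library of the series with 7.4 M counts, was the highest, and the groups overlapped. The log2 difference was 0.40 ± 0.15 (SE), with an adjusted p of 0.473 by edgeR, and 0.25 without FDM replicate 2. HSPA8 had 1007.2, 1553.8, 937 and 1182.3 CPM in FDM, against 838, 745.6, 907.5 and 1085.8 CPM in untreated retinae, and its log2 difference was 0.39 ± 0.16 (adjusted p = 0.604), and 0.22 without FDM replicate 2. Mean totals were 12 M in FDM at 4 h and 16.8 M in untreated at 4 h. With log2 total count in the model, an alternative added after the data were seen, the log2 differences were 0.07 for HSP90AA1 and 0.03 for HSPA8.

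HSP90AB1, whose slope with depth was 1.18, had 95.2, 93.8, 94 and 88.2 CPM in FDM at 4 h, against 78.9, 81.2, 75.5 and 77.5 CPM in untreated retinae. Every FDM library lay above every untreated library, yet the log2 difference of 0.25 ± 0.09 had an adjusted p of 0.498 over all genes. At 24 h it had 81.2, 82.7, 69.9 and 95 CPM in FDM, against 80.7, 74.9 and 67.1 CPM in untreated retinae, and the groups overlapped.

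Injected eyes were compared with FDM eyes, drug by drug. HSPB9 alone passed by edgeR in any of the 14 comparisons of a single group with FDM or untreated at 1 time. These comparisons cover FDM, 4 drugs and recovery, recovery being set against both. HSPB9 was higher with pirenzepine at 24 h. DESeq2 called members in some of the other comparisons, as counted below. BAG3, an exchange factor of HSP70 that directs clients to autophagy, was also higher with pirenzepine when both times were averaged. Among the members tested beside them, HSPA4L was slightly lower over the 4 injected groups together.

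HSPB9 (chromosome 27, 5258118 to 5258992, plus strand, in the deposited coordinates) overlaps no other gene, and its nearest neighbour RAB5C, on the minus strand, ends 1333 bases from it, so that the genes converge. With pirenzepine at 24 h, HSPB9 had 4.02, 5.65, 4.09 and 7.71 CPM, against 1.47, 1.85, 2.21 and 2.01 CPM in FDM. The groups did not overlap. Its log2 difference was 1.5 ± 0.38, with a 95% interval of 0.73 to 2.27 and an adjusted p of 0.0232 by edgeR, in a comparison where 1.63% of all genes passed. Leaving out 1 library kept the log2 difference between 1.27 and 1.62, but the call was lost without FDM replicate 1 or 2, or without pirenzepine replicate 2 or 4, with adjusted p up to 0.143.

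At 4 h the same gene had 4.8, 5.87, 5.05 and 3.13 CPM with pirenzepine, against 3.13, 2.55, 1.17 and 1.22 CPM in FDM. The log2 difference was 1.24 ± 0.39 with an adjusted p of 0.0811. With atropine at 4 h it had 8.67, 3.3, 4.04 and 3.59 CPM, all above the FDM libraries, and the log2 difference was 1.30 ± 0.38 (adjusted p = 0.084). Without the library at 8.67 CPM that difference was 0.86, with an adjusted p of 0.469. With ADTN at 4 h it had 4.22, 9.21, 2.67 and 1.22 CPM, which spans the FDM range, and the log2 difference was 1.11 ± 0.39 (adjusted p = 0.154). Without ADTN replicate 2 that difference was 0.45, and without replicate 4 it was 1.41 with an adjusted p of 0.0267. With TPMPA at 4 h it had 2.46, 3.26, 4.32 and 3.85 CPM, and the log2 difference was 0.80 ± 0.39 (adjusted p = 0.33).

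Averages of each condition over both times were added after the single-time results were seen. In those, HSPB9 with pirenzepine differed from FDM by 1.37 ± 0.27 (log2), with an adjusted p of 0.000601. The 8 pirenzepine libraries had a lowest value of 3.13, a median of 4.92 and a highest of 7.71 CPM, against 1.17, 1.93 and 3.13 CPM in the 8 FDM libraries. In 7 of the 8 pirenzepine libraries the value was above the highest FDM library. This call held without any single library, with an adjusted p of at most 0.00308. HSPB9 with atropine differed from FDM by 1.06 ± 0.27 (adjusted p = 0.0241). Leaving out any of 6 of the 16 libraries ended that call, with adjusted p up to 0.097; those were FDM at 4 h, replicates 3 and 4, atropine at 4 h, replicate 1, FDM at 24 h, replicate 1, and atropine at 24 h, replicates 2 and 4. With ADTN the difference was 0.84 ± 0.27 (adjusted p = 0.103), and with TPMPA 0.67 ± 0.27 (adjusted p = 0.273).

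The differences among the 4 drugs were tested directly. HSPB9 had an adjusted p of 0.728 at 4 h and 0.244 at 24 h for any difference among the injected groups, so a drug-specific level was not shown. Over the 4 injected groups together, both times averaged, HSPB9 was higher than in FDM by 0.98 ± 0.23 (log2, adjusted p = 0.0084). The 32 injected libraries had a lowest value of 1.22, a median of 3.46 and a highest of 9.21 CPM. Against untreated retinae, whose 7 libraries ran from 1.81 to 2.84 CPM, the injected groups differed by 0.76 ± 0.24 (adjusted p = 0.0889). Without ADTN at 4 h, replicate 4, that adjusted p was 0.0334. These comparisons with FDM share the FDM libraries.

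BAG3 (chromosome 6, 30302056 to 30319961) had 110.8, 97.9, 68 and 76.1 CPM with pirenzepine at 4 h, against 52.1, 57.1, 55.7 and 64.6 CPM in FDM. The groups did not overlap, and the log2 difference was 0.62 ± 0.19 with an adjusted p of 0.0635 by edgeR. At 24 h it had 82, 90.5, 76.8 and 101.2 CPM with pirenzepine, against 54.6, 68.1, 67.3 and 53.8 CPM in FDM. Here too every pirenzepine library was the higher, with a log2 difference of 0.52 ± 0.18 (adjusted p = 0.168). Averaged over both times, BAG3 passed with pirenzepine, at 0.57 ± 0.13 (adjusted p = 0.00373), and that call held without any single library, with an adjusted p of at most 0.0133.

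With atropine at 4 h BAG3 had 83.5, 82.4, 93.3 and 79.6 CPM, all above FDM, while at 24 h it had 82.4, 104.1, 51.5 and 70.3 CPM. The average over both times was 0.45 ± 0.13, with an adjusted p of 0.0581; without atropine at 24 h, replicate 3, the adjusted p was 0.0147. With TPMPA at 4 h BAG3 had 59.5, 50.8, 123.2 and 75.4 CPM, of which 123.2 was the highest of the series. With ADTN at 4 h it had 60.8, 68.9, 56.2 and 62.9 CPM, which overlaps FDM. Over the 4 injected groups the difference from FDM was 0.37 ± 0.11 (adjusted p = 0.0451). That call was lost when any of 20 of the 40 libraries was left out, among them every FDM library at both times, with adjusted p up to 0.118. The test among the drugs gave an adjusted p of 0.223 at 4 h and 0.372 at 24 h.

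HSPA4L, chosen after its values were seen, had 382, 359.2, 400.9 and 406.5 CPM with atropine at 4 h, against 425.5, 513.8, 416.5 and 517.1 CPM in FDM. All atropine libraries were lower, and the log2 difference was -0.27 ± 0.08 with an adjusted p of 0.0918. Over the 4 injected groups and both times it was lower than in FDM by 0.16 ± 0.05 on the log2 scale (adjusted p = 0.0423). Leaving out any of 24 of the 40 libraries ended that call, with adjusted p up to 0.19. Against untreated retinae the injected groups differed by -0.05 ± 0.05. Within groups, the log2 CPM of HSPA4L had a correlation of -0.6 with log2 total count (slope 0.87). The FDM libraries at 513.8 and 517.1 CPM had 7.4 and 11.77 M counts, the lowest totals of that group. At 4 h mean totals were 12 M in FDM and 14.5 to 17.9 M in the injected groups. At 24 h they were 16 M and 12.3 to 16.2 M. HSPA2, a cytosolic HSP70, had 221.5, 182.6, 294.8 and 323.9 CPM with TPMPA at 4 h, against 220, 193.2, 170.1 and 172.4 CPM in FDM. Those groups overlapped. Over the 4 injected groups and both times HSPA2 differed from FDM by 0.25 ± 0.08 (adjusted p = 0.0937).

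**Figure D3:**
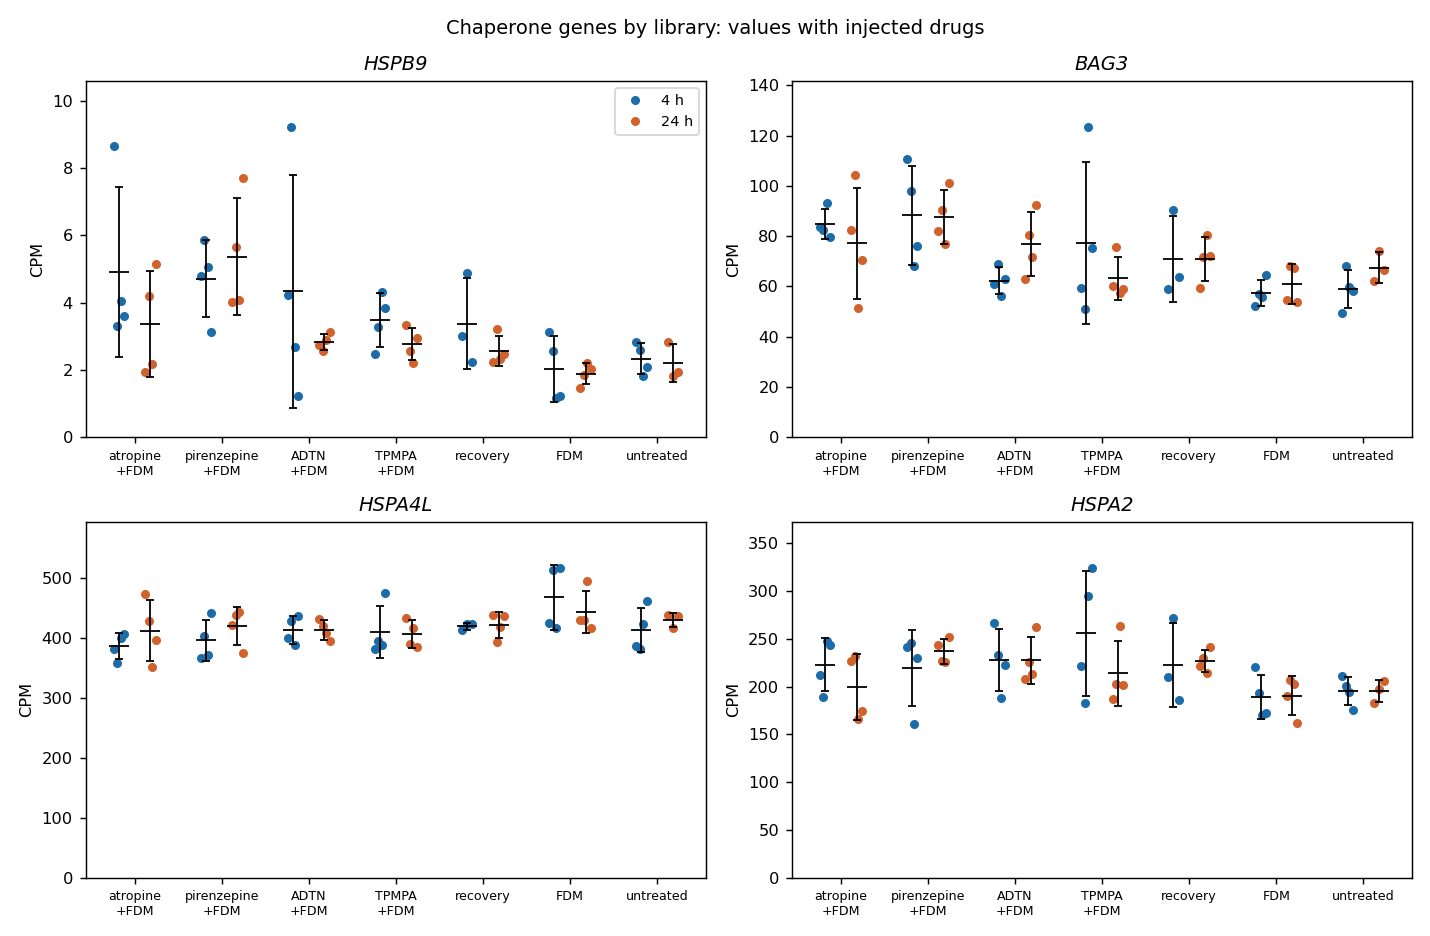
CPM of HSPB9, BAG3, HSPA4L and HSPA2 in every library, by condition (4 h in blue, 24 h in orange). Black bars are mean ± SD over the 3 or 4 libraries of a group. HSPB9 with pirenzepine at 24 h (4.02 to 7.71 CPM) lies above FDM at 24 h (1.47 to 2.21 CPM), and BAG3 with pirenzepine lies above FDM at both times.

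Counts of members called in the single-drug comparisons stood as follows. Shares of all genes, here and in the paragraphs below, are those of edgeR. The shares called by DESeq2 are not given here, so its member counts have no background to be set against. With pirenzepine at 24 h 1 of 77 passed, where 257 of all 15746 genes passed. There 3 members had an unadjusted p under 0.05, as did 11.9% of all genes. With pirenzepine at 4 h 0 passed by edgeR and 1 by DESeq2, where 2.09% of all genes passed, and 7 had an unadjusted p under 0.05 (14% of all genes). With atropine at 4 h 0 passed by edgeR and 2 by DESeq2, where 1.17% of all genes passed, and 9 had an unadjusted p under 0.05 (11.8% of all genes). With atropine at 24 h 0 passed by either tool, where 0.0953% of all genes passed, and 13 had an unadjusted p under 0.05 (13.3% of all genes).

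With ADTN at 4 h 0 passed by edgeR and 1 by DESeq2, where 0.756% of all genes passed, and 12 had an unadjusted p under 0.05 (14.7% of all genes). With ADTN at 24 h 0 passed by either tool, where 0.0381% of all genes passed, and 8 had an unadjusted p under 0.05 (7.86% of all genes). With TPMPA 0 passed by either tool at both times, where 0.47% of all genes passed at 4 h and 0% at 24 h. At an unadjusted p under 0.05 there were 13 members at 4 h (14.5% of all genes) and 5 at 24 h (11.7% of all genes). For the 4 injected groups together at 4 h, 0 passed by edgeR and 2 by DESeq2, where 1.58% of all genes passed, and 10 had an unadjusted p under 0.05 (13.3% of all genes). At 24 h 0 passed by either tool, where 0.14% of all genes passed, and 8 had an unadjusted p under 0.05 (10.5% of all genes).

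In the averages over both times, 2 of 77 members passed with pirenzepine (5.07% of all genes), 1 with atropine (1.85%), and 3 in the 4 injected groups against FDM (2.36%). At an unadjusted p under 0.05 there were 6, 16 and 11 members, against 17.6%, 16% and 13.5% of all genes. With ADTN 0 passed by either tool (1.53% of all genes), with 15 at an unadjusted p under 0.05 (14.6%). With TPMPA 0 passed by either tool (0.559% of all genes), with 17 at an unadjusted p under 0.05 (12%). In the injected groups against untreated 0 passed by edgeR and 1 by DESeq2 (1.81% of all genes), with 9 at an unadjusted p under 0.05 (11.8%).

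For any difference among the drugs, 0 members passed at 4 h by edgeR and 2 by DESeq2 (2.4% of all genes), with 15 at an unadjusted p under 0.05 (21.2%). At 24 h 0 passed by either tool (1.89% of all genes), with 10 at an unadjusted p under 0.05 (18.4%). The change from 4 h to 24 h of each drug's difference from FDM was tested too, and 0 members passed for any drug by either tool, where 0% of all genes passed. At an unadjusted p under 0.05 there were 4 members for atropine (8.1% of all genes), 1 for pirenzepine (6.04%), 5 for ADTN (7.02%) and 10 for TPMPA (14.6%).

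HSP90AB1 had 74.6, 56.7, 82.1 and 85.2 CPM with ADTN at 4 h, against 95.2, 93.8, 94 and 88.2 CPM in FDM, with no overlap, and its log2 difference of -0.31 ± 0.09 had an adjusted p of 0.0841. HSPG2 had 98, 85.1, 81.7 and 38.6 CPM with ADTN at 4 h, against 48.3, 35.6, 34.5 and 48.4 CPM in FDM, with a log2 difference of 0.86 ± 0.30 (adjusted p = 0.154). Replicate 4 of ADTN at 4 h was the lowest of its group in HSPB9 and HSPG2 and had the highest HSP90AB1. Without it, HSPB9, HSP90AB1 and HSPG2 all passed in that comparison, with adjusted p of 0.0267, 0.0237 and 0.0372. Within groups, HSPG2 had a correlation of 0.77 over 54 libraries with a summary of 10 vessel genes, as a description of measures that share a library. With that summary as a covariate its log2 difference was 0.28 (adjusted p = 0.812).

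Vessel markers were measured beside these groups. The summed level of 10 vessel genes ran from 411 to 563 CPM with pirenzepine at 4 h, against 297 to 378 CPM in FDM, and from 455 to 545 CPM at 24 h, against 339 to 453 CPM. Of the 10, KDR alone passed in each of those comparisons, while 2 had positive differences at 4 h and 1 at 24 h. PECAM1, EMCN, SOX17 and PLVAP were not among the genes tested. The vessel summary is another measure than this sum, and its means were lower with pirenzepine than in FDM. At 4 h they were 0.11 ± 0.66 (SD) with pirenzepine and 0.93 ± 1.41 in FDM. At 24 h they were 0.98 ± 2.07 and 3.16 ± 0.63. Within groups the correlation with the vessel summary was 0.09 for HSPB9 and 0.03 for BAG3. With that summary as a covariate, the pirenzepine averages were 1.43 for HSPB9 (adjusted p = 0.000793) and 0.58 for BAG3 (adjusted p = 0.0063). GFAP, a marker of reactive Müller glia, was higher with each drug at 4 h. Its log2 differences were 2.02 for atropine, 2.11 for pirenzepine, 1.82 for ADTN and 1.7 for TPMPA. Other Müller glia genes went both ways at 4 h. AQP4 (-0.38) and GLUL (-0.6) passed with lower values with atropine, and SOX2 (0.72) and SOX9 (0.82) with higher values with TPMPA. Of 8 pericyte and smooth muscle genes, KCNJ8 passed with pirenzepine at 4 h (2.22) and 24 h (2.89), and CNN1 at 4 h (1.68). Of 9 pigment epithelium and melanocyte genes, OCA2 passed at 4 h (1.44) and 24 h (1.06), although 1 and 2 of the 9 differences were positive. Of 8 Müller glia genes, SOX2 (0.67) also passed with pirenzepine at 4 h, and SLC1A3 (0.49) at 24 h. Of 10 photoreceptor genes, CNGA3 (-0.63) and RGS9 (-0.48) were lower and CNGB1 (0.74) higher at 4 h, and none passed at 24 h. The part of these cells in the HSPB9 and BAG3 values was not tested.

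Recovery from form deprivation was compared with untreated eyes and with FDM eyes. Recovery eyes had worn the diffuser for 3 days before its removal, while FDM eyes wore it only from the start of the experiment. In recovery against FDM, removal and the longer earlier wear cannot be told apart. No member passed at a single time by edgeR. Averaged over both times, HSPH1 and HSPA5 were higher in recovery than in untreated retinae, and FKBP9 was higher in recovery than in FDM. The other HSP110 genes did not pass against untreated, with log2 differences of 0.07 for HSPA4 and 0.00 for HSPA4L, nor did the ER members HSP90B1 (0.19, adjusted p = 0.336), DNAJB9 (0.07) and HSPA13 (-0.02). HSPH1 is an HSP110 exchange factor and FKBP9 is a prolyl isomerase of the ER, chosen for description after its values were seen. At 4 h, 0 of 77 members passed against untreated by edgeR and 1 by DESeq2, with 7 at an unadjusted p under 0.05 (7.01% of all genes), where 0.0381% of all genes passed. At 24 h, 0 passed by edgeR and 1 by DESeq2, with 10 at an unadjusted p under 0.05 (12.3% of all genes), where 0.654% of all genes passed. Against FDM 0 passed at 4 h by either tool (0.349% of all genes), with 6 at an unadjusted p under 0.05 (9.25%). At 24 h 0 passed by edgeR and 1 by DESeq2 (1.17% of all genes), with 8 at an unadjusted p under 0.05 (13.3%). Averaged over both times, 2 members passed against untreated, and 0.857% of all genes did; 10 had an unadjusted p under 0.05 (12.4% of all genes). In that average against FDM 1 member passed, and 1.64% of all genes did; 16 had an unadjusted p under 0.05 (15.7% of all genes). The change of recovery's difference from untreated between 4 h and 24 h was passed by 0 members by either tool, with 3 at an unadjusted p under 0.05 (6.79% of all genes), and by 0.0635% of all genes. The same test for FDM was passed by 0 members by either tool, with 9 at an unadjusted p under 0.05 (9.08% of all genes), and by 0% of all genes.

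HSPA5 (chromosome 17, 10076957 to 10081027), the ER chaperone that holds the stress sensors of the unfolded protein response inactive, had 384.9, 477.2 and 346.1 CPM in recovery at 4 h, against 281.9, 248.1, 288 and 305.4 CPM in untreated retinae. The groups did not overlap, and the log2 difference was 0.52 ± 0.12 (adjusted p = 0.0634 by edgeR). Without recovery replicate 2, the library with 654.4 CPM of pericyte and smooth muscle genes, the difference was 0.39, with an adjusted p of 0.904. Without replicate 3 it was 0.61, with an adjusted p of 0.023. At 24 h HSPA5 had 316.7, 349.1, 332.3 and 324 CPM in recovery, against 285, 312.7 and 310.5 CPM in untreated retinae, a log2 difference of 0.13 ± 0.12. The average over both times was 0.32 ± 0.09 (adjusted p = 0.0495). That call was lost when any of 13 of the 14 libraries was left out, all but recovery at 4 h, replicate 3, with adjusted p up to 0.326. With the vessel summary as a covariate the difference was 0.31, with an adjusted p of 0.141. At 24 h that summary did not overlap between recovery and untreated, so the fit cannot separate it from the condition there.

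HSPH1 (chromosome 1, 175014605 to 175036647) had 249.9, 264.8 and 269.3 CPM in recovery at 4 h, against 226.8, 199.7, 206.2 and 210.7 CPM in untreated retinae. At 24 h it had 268.1, 276.3, 300.1 and 265.6 CPM in recovery, against 221.7, 212.3 and 219 CPM in untreated retinae. All recovery libraries were above all untreated libraries at both times. The average log2 difference over both times was 0.33 ± 0.08 (adjusted p = 0.0217). Its call was lost without recovery at 4 h, replicate 2, without recovery at 24 h, replicate 3, or without any of the 3 untreated libraries of 24 h, with adjusted p up to 0.103, while the log2 difference stayed between 0.31 and 0.35. In FDM HSPH1 had 202.3, 258.6, 198 and 259.5 CPM at 4 h and 248.4, 247.7, 260 and 220.9 CPM at 24 h, and recovery minus FDM was 0.19 ± 0.07 (adjusted p = 0.189).

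FKBP9 (chromosome 2, 48168111 to 48183969) had 96.1, 91.7 and 97.2 CPM in recovery at 4 h, against 57.8, 76.8, 88.5 and 85.7 CPM in FDM. At 24 h it had 85.8, 98.7, 98.3 and 84.4 CPM in recovery, against 81.7, 72.1, 58.6 and 76.1 CPM in FDM. Recovery lay above FDM at both times with no overlap, and the average log2 difference was 0.32 ± 0.09 (adjusted p = 0.0417). That call was lost when any of 9 of the 15 libraries was left out, with adjusted p up to 0.133; these were FDM at 4 h, replicates 1 and 2, all 3 recovery libraries of 4 h, and replicates 2 and 3 of FDM and of recovery at 24 h. Against untreated retinae the average was 0.32 ± 0.09 as well, with an adjusted p of 0.0782.

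FKBP5, an HSP90 co-chaperone that lowers the hormone affinity of the glucocorticoid receptor and is itself a target of that receptor, had 145.4, 190.5, 179.2 and 141.4 CPM in recovery at 24 h, against 107.8, 130.7 and 111.7 CPM in untreated retinae. The groups did not overlap, and the log2 difference was 0.49 ± 0.14 (adjusted p = 0.0705). Without recovery replicate 4 the adjusted p was 0.0491, and with the vessel summary as a covariate the difference was 0.32 (adjusted p = 0.598). That summary ran from 3.19 to 3.97 in recovery at 24 h and from -0.67 to -0.2 in untreated at 24 h. With no overlap between the groups, this fit cannot separate the summary from the condition. At 4 h FKBP5 had 157.8, 153.5 and 143.1 CPM in recovery, against 148.4, 146.8, 144.2 and 132.9 CPM in untreated retinae, and the groups overlapped. FKBP4, its antagonist on the receptor complex, ran from 282 to 329 CPM over the 7 recovery libraries and from 256 to 327 CPM over the 7 untreated libraries.

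**Figure D4:**
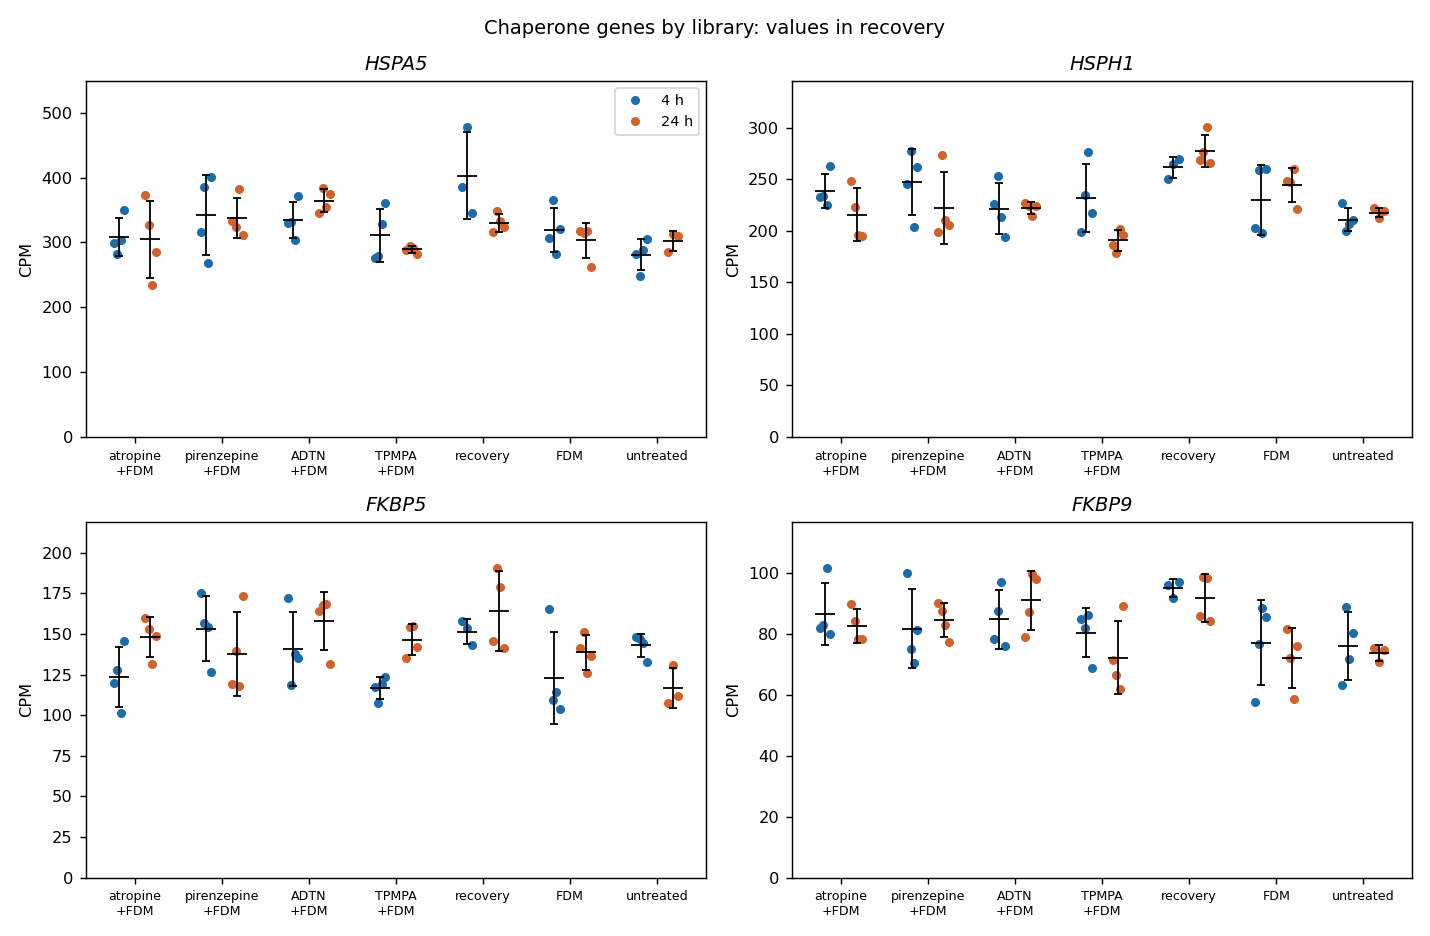
CPM of HSPA5, HSPH1, FKBP5 and FKBP9 in every library, by condition (4 h in blue, 24 h in orange), with mean ± SD over the 3 or 4 libraries of a group. HSPH1 in recovery (249.9 to 300.1 CPM) lies above untreated (199.7 to 226.8 CPM) at both times, and the highest HSPA5 value, 477.2 CPM, is a recovery library of 4 h.

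The pericyte and smooth muscle genes also varied in recovery. Their summed level ran from 8.6 to 654 CPM in recovery at 4 h, against 13.5 to 21.5 CPM in untreated. There replicate 2 alone was high, and the other recovery libraries lay below every untreated library. At 24 h it ran from 22.8 to 162 CPM in recovery and from 8.96 to 12.1 CPM in untreated. In FDM it ran from 10.3 to 15.1 CPM at 4 h and from 8.9 to 101 CPM at 24 h. The mean vessel summary at 24 h was 3.68 in recovery, 3.16 in FDM and -0.42 in untreated. Averaged over both times, 4 of the 8 measured genes of that list passed against untreated: ACTA2, MYH11, PDGFRB and TAGLN. MYL9 was not among the genes tested. All 10 vessel genes had positive differences in that average, with a median log2 difference of 3.02, and TEK passed. The part of these cells in the recovery values was not tested.

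**Figure D5:**
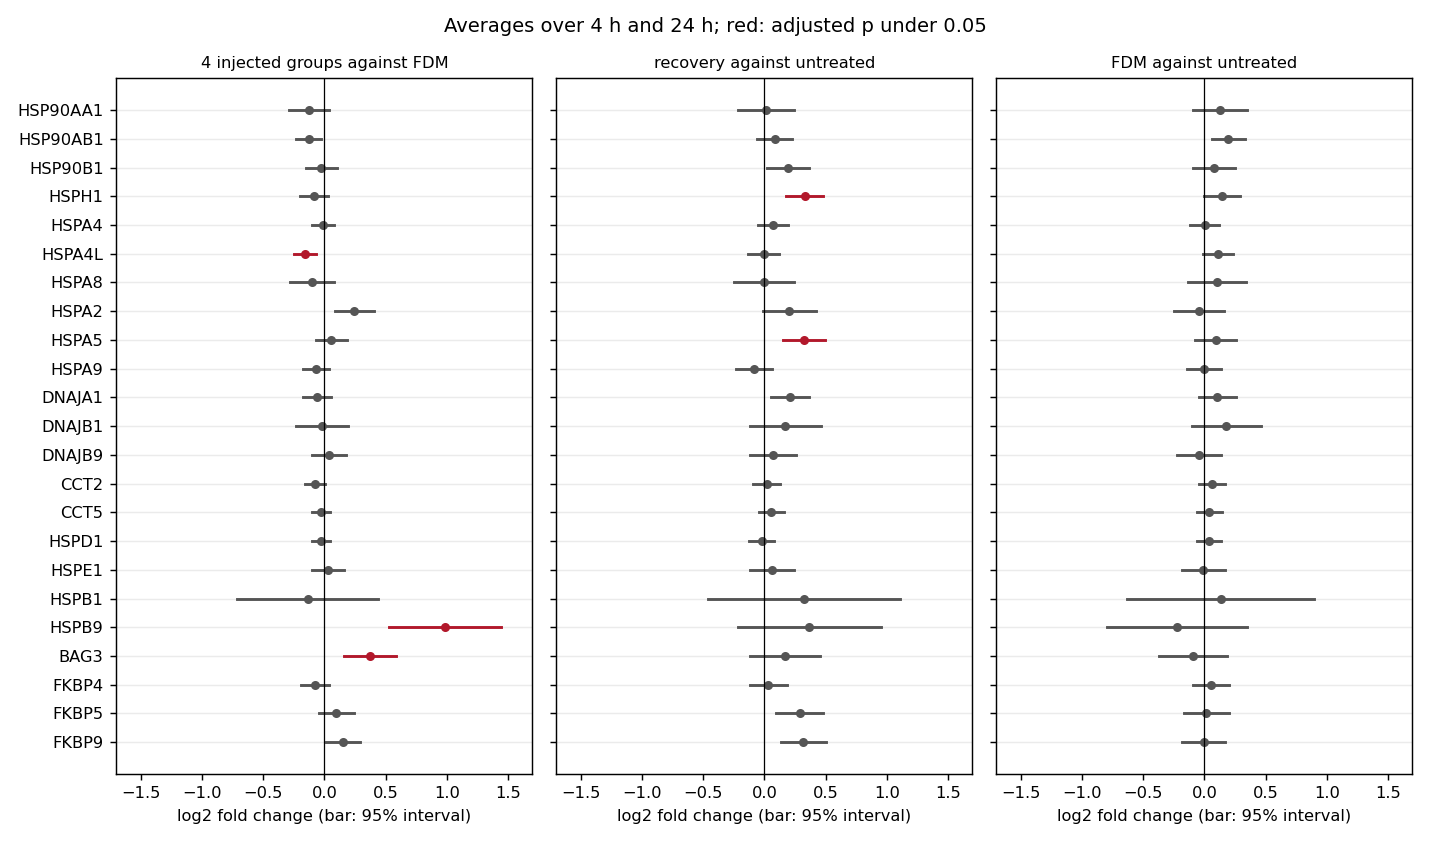
Log2 fold change with its 95% interval for 23 members, averaged over 4 h and 24 h, for the 4 injected groups against FDM, recovery against untreated, and FDM against untreated. Red marks an adjusted p under 0.05 (edgeR): HSPB9 (0.98), BAG3 (0.37) and HSPA4L (-0.16) on the left, HSPH1 (0.33) and HSPA5 (0.32) in the middle, and none on the right.

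Chosen pairs of members, only some of which work in the same complex, were followed across the 54 libraries. HSPA5 and HSPH1 are not such partners. Correlations used log2 CPM after each group's mean was subtracted. The p-values come from 100000 permutations within groups and were adjusted over the 6 pairs tested. The ER pair HSPA5 and HSP90B1 had r = 0.85 (adjusted p = 6e-05, from the smallest p these permutations can give, 1e-05; rho = 0.79). Without the 2 libraries farthest from the median of HSPA5, r was 0.82, and with the linear effect of log2 total count removed it was 0.75. The CCT subunits CCT2 and CCT5 had r = 0.59 (adjusted p = 0.0005 by permutation; rho = 0.54), 0.48 without the 2 farthest libraries and 0.41 with depth removed.

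HSPD1 and HSPE1, the barrel and lid of the mitochondrial chaperonin, lie 482 bases apart on chromosome 7 and are read in opposite directions. They had r = 0.55 (adjusted p = 0.00048 by permutation; rho = 0.51), 0.54 without the 2 farthest libraries and 0.43 with depth removed. HSPA5 and HSPH1 had r = 0.48 (adjusted p = 0.0091 by permutation; rho = 0.44), 0.47 without the 2 farthest and 0.46 with depth removed. HSPA8 and its J protein DNAJA1 had r = 0.40 (adjusted p = 0.026 by permutation; rho = 0.47), 0.34 without the 2 farthest and 0.67 with depth removed. HSPH1 and HSP90AA1 had r = 0.37 (adjusted p = 0.026 by permutation; rho = 0.33), 0.38 without the 2 farthest and 0.58 with depth removed. For comparison, the median over all 2926 pairs of members was 0.05, and 0.06 with depth removed. High values were not particular to the chosen pairs. HSPA5 and HSP90AA1 had 0.73, or 0.65 with depth removed, and HSPA8 and CCT6 had 0.79 as measured.

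These relations were recomputed in the 27 libraries with low and the 27 with high levels of small structural RNA genes. Each group's mean was subtracted anew within a set, so a group with a lone library in a set added nothing to it. The low set thus drew on untreated, FDM, atropine and pirenzepine at 4 h, and on untreated, atropine and TPMPA at 24 h. The high set drew on the remaining groups. HSPA5 and HSP90B1 had r = 0.39 in the high libraries and 0.96 in the low ones, CCT2 and CCT5 had 0.24 and 0.88, HSPA5 and HSPH1 had 0.46 and 0.87, and HSPH1 and HSP90AA1 had 0.10 and 0.78. HSPA8 and DNAJA1 had -0.02 in the high libraries and 0.56 in the low ones. Small-RNA level and condition cannot be told apart between the sets. The difference between the sets was not tested, and depth was not removed within them. HSPD1 and HSPE1 held in each set, with 0.70 and 0.58.

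The members nearest to the genes above were named by the same correlation, as a description. The members most like BAG3 were DNAJA1 (0.62), HSPA4 (0.61) and HSPA2 (0.60). The members most like HSPH1 were DNAJA1 (0.69), HSPD1 (0.60) and CCT4 (0.57). HSPB9 had no near neighbour: its closest members were HSPBP1 (0.34), FKBP8 (0.33) and HSPG2 (0.31). HSPA8 and HSP90AA1 were the closest pair listed, with 0.98 as measured and 0.76 with depth removed. Next to HSPA8 came CCT6 (0.79) and FKBP12 (0.74). The members most like HSPA5 were HSP90B1 (0.85), HSP90AA1 (0.73) and DNAJB6 (0.72). FKBP5 was closest to DNAJC16 (0.46).

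Other members named for their roles are given by their ranges over both times together, and none passed. HSPA9, the mitochondrial HSP70 mortalin, ran from 247 to 370 CPM in the 32 injected libraries, from 278 to 340 CPM in recovery, from 296 to 361 CPM in FDM and from 289 to 400 CPM in untreated retinae. HSPA4, an HSP110, ran from 208 to 283 CPM in injected, 245 to 283 CPM in recovery, 228 to 286 CPM in FDM and 229 to 267 CPM in untreated retinae. DNAJA1 ran from 168 to 281 CPM in injected, 223 to 287 CPM in recovery, 220 to 254 CPM in FDM and 191 to 244 CPM in untreated retinae. At 24 h alone DNAJA1 had 268.7, 264.9, 287.3 and 279 CPM in recovery, against 225.3, 236.7 and 244.5 CPM in untreated retinae, with no overlap. Its log2 difference was 0.22 ± 0.11 there (adjusted p = 0.399), and 0.21 ± 0.08 over both times (adjusted p = 0.196). DNAJB9, an ER J protein induced by the unfolded protein response, ran from 47 to 85.4 CPM in injected, 52.9 to 87.5 CPM in recovery, 52 to 66 CPM in FDM and 54.5 to 69.2 CPM in untreated retinae. DNAJB1, the J protein most closely tied to the heat shock response, was represented by a fragment of 535 bases on an unplaced scaffold with 47 to 279 counts per library. It ran from 5.94 to 14 CPM in injected, 7.49 to 13.6 CPM in recovery, 6.67 to 13.4 CPM in FDM and 7.25 to 11.1 CPM in untreated retinae.

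Other lists were counted beside the members in the 16 comparisons at a single time. Of the heat shock factors and their binding proteins, 4 of 7 were measured, and 0 passed by edgeR in any of the 16. At an unadjusted p under 0.05 there were at most 2 in any of them. Averaged over both times, HSBP1L1, which resembles an inhibitor of HSF1, passed with pirenzepine (0.42 ± 0.13, adjusted p = 0.0427). Of 38 other chaperones, 32 were measured, and 1 passed: ST13, which links HSP70 to HSP90, was lower with pirenzepine at 4 h (-0.29 ± 0.08, adjusted p = 0.0414). The median of that list there was 0.05, against 0 over all genes. In the average over both times, PDCL3 of that list was higher with pirenzepine (0.27 ± 0.08, adjusted p = 0.0453 by edgeR). Of the mitochondrial quality control genes 15 of 16 were measured, and 0 passed, with at most 2 at an unadjusted p under 0.05 in any of the 16. The members HSPD1, HSPE1, HSPA9, DNAJA3 and DNAJC19 belong to that list. The cold-inducible RNA-binding protein that was measured, of 2 listed, passed in none of the 16. It had an unadjusted p under 0.05, with lower values, with atropine, ADTN and TPMPA at 4 h.

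Of 29 genes of the ER unfolded protein response, 23 were measured, and PDIA4, an ER oxidoreductase, passed with ADTN at 4 h (0.38 ± 0.10, adjusted p = 0.0433). The members HSPA5, HSP90B1, DNAJB9 and DNAJC3 belong to this list and are counted again in it. In the both-time average of recovery against untreated 2 passed, HSPA5 and CRELD2 (0.47 ± 0.11, adjusted p = 0.0196), 21 of the 23 differences were positive, and the median log2 difference was 0.10, against 0.01 over all genes. At 4 h alone 10 of the 23 had an unadjusted p under 0.05 against untreated, as did 7.01% of all genes, and 0 passed. Recovery at 4 h, replicate 2, with its 654.4 CPM of pericyte and smooth muscle genes, held the highest level of the series for the ER genes HSPA5, DNAJC3 and DNAJB9. In recovery against FDM at both times, CRELD2 (0.53 ± 0.10, adjusted p = 0.00267) and HERPUD1 (0.61 ± 0.12, adjusted p = 0.00401) passed, both induced by ER stress. With pirenzepine the averages of SDF2L1 (0.30 ± 0.08, adjusted p = 0.0232) and XBP1 (0.27 ± 0.07, adjusted p = 0.0126) passed, and with ADTN those of PDIA4 and MANF (0.31 ± 0.08, adjusted p = 0.0421).

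Of 12 glucocorticoid receptor targets, 10 were measured. CEBPD passed with atropine (1.6 ± 0.42, adjusted p = 0.0384) and pirenzepine (1.91 ± 0.42, adjusted p = 0.00658) at 4 h, and NFKBIA passed in recovery against untreated at 24 h (0.74 ± 0.16, adjusted p = 0.0105). The median of the list in that recovery comparison was 0.26, against 0.01 over all genes. FKBP5 and FKBP4 belong to this list, and neither passed. In the both-time averages CEBPD (1.68) and ERRFI1 (1.00) were higher with pirenzepine, while SGK1 (-0.26, adjusted p = 0.0488) and TSC22D3 (-0.25, adjusted p = 0.0293) were lower. With atropine CEBPD (1.27) and ERRFI1 (0.99) were higher. SGK1 was lower in the injected groups than in untreated retinae (-0.28, adjusted p = 0.0122), and in recovery SGK1 (0.32) and DUSP1 (0.63) were higher than in FDM.

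Immediate early genes, which respond to neuronal activity soon after stimulation, were counted in the same comparisons. Of 21, 18 were measured, and 6 were lower in FDM than in untreated retinae at 4 h, among them DUSP4 (-1.43 ± 0.24, adjusted p = 0.00134) and FOS (-1.68 ± 0.39, adjusted p = 0.048). With TPMPA at 4 h 8 were higher than in FDM, FOS by 3.25 ± 0.40 (adjusted p = 4.92e-06). With pirenzepine 4 were higher at 4 h and 5 at 24 h, with ADTN at 4 h 2 and with atropine at 4 h 1. In recovery 6 were higher than in FDM at 4 h and 2 at 24 h. The number of all 15746 genes that passed by edgeR also differed between these comparisons. At 4 h it was 27 in FDM against untreated, 74 with TPMPA, 119 with ADTN and 185 with atropine. Pirenzepine had 329 at 4 h and 257 at 24 h, and recovery against FDM had 55 and 184. At 4 h the chaperone with the largest difference with TPMPA was HSPB9, at 0.80 ± 0.39, with no call.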

How the data were processed

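Whole-retina RNA was extracted with Trizol from samples with RNA integrity above 7.0, made into directional libraries and sequenced as 75-cycle paired reads on an Illumina NextSeq, per the labels' protocols. The genome build galGal5 and the tools edgeR, limma, HOMER, HISAT2 2.1 and Trimmomatic 0.36 appear, without their roles, per the submitters' processing notes. The authors deposited raw counts per transcript entry, with each entry's length and coordinates; whether counting used strand, or split reads between copies, is not stated in the labels. Of 38118 entries, 39.5% carry no gene symbol.

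For each of 24599 gene names the entry with the largest total count was kept. Counts were tested in edgeR 4.0.16 (R 4.3.3, limma 3.58.1) by the quasi-likelihood test with TMM factors and 14 group means over all 54 libraries. Genes passed a filter with a minimum count of 10 and a minimum total of 15, which left 15746, and p-values were adjusted over them by Benjamini-Hochberg. Errors of log2 differences are standard errors; CPM used TMM-scaled totals and log2 CPM a prior count of 0.5. DESeq2 1.42.0 was an alternative. Scripts were tested on simulated data. Covariation used Python 3.11.15 with numpy 2.4.6.

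The members and the gene lists were chosen with earlier results of these data known. Averages over both times and the total-count covariate were added after the data were seen. Named members are those past the threshold in the comparisons of a single group at 1 time, 20 chaperones listed by role, and the 3 highest and 3 lowest in counts per base; from each list up to 4 genes past the threshold in the most comparisons. FKBP9, HSPA4L, HSPB8, FKBP12, DNAJC6, DNAJC7, DNAJC8, DNAJC28 and some list genes were named after their values were seen. Samples were not paired by replicate number in the main test. Log2 levels of libraries with the same number had a mean correlation of deviations of 0.042, against -0.014 for different numbers. At 4 h replicate 4 had the lowest total of its group in untreated, atropine, pirenzepine, ADTN and TPMPA, from 11.04 to 13.28 M counts. This did not hold in FDM at 4 h, and at 24 h it held in ADTN alone. Whether libraries with the same number share a batch was not tested. Of the members, 4 overlap a gene on the opposite strand and 5 one on the same strand.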

Additional observations from a re-analysis of the deposited data

Results flagged for a closer look

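In groups of 4 libraries, 13 members were searched for a library far from the other 3 by Dixon's test at its 95% critical value. Of 156 tests 11 passed, and chance gives about 1 in 20. ADTN at 24 h, replicate 4, accounts for 3 of them: HSP90AA1 was 1786 CPM there, against 1198.5 to 1283 CPM in the other libraries, HSPA8 was 1339 CPM against 845.7 to 904.6 CPM, and FKBP5 was 131.3 CPM against 164 to 168.5 CPM. That library had 9.97 M counts, the lowest total of its group.

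HSPB9 was 8.67 CPM in atropine at 4 h, replicate 1, against 3.3 to 4.04 CPM in the others. FKBP9 was 101.6 CPM in atropine at 4 h, replicate 3, against 80 to 82.8 CPM. HSPH1 was 273.8 CPM in pirenzepine at 24 h, replicate 2, against 198.8 to 210.1 CPM. HSPA4L was 474.9 CPM in TPMPA at 4 h, replicate 4, against 381.9 to 395 CPM. BAG3 was 75.8 CPM in TPMPA at 24 h, replicate 2, against 57.4 to 60.2 CPM, and HSPB1 was 6.23 CPM in replicate 3 of that group, against 3.25 to 3.37 CPM. HSPA5 was 262.5 CPM in FDM at 24 h, replicate 4, against 314.2 to 318.1 CPM, and HSPG2 was 80.5 CPM in replicate 2 of that group, against 60 to 62.5 CPM.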

How the results depend on the processing

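No named member changed direction under any of the 9 settings tried. Counts of members called moved as follows, and the causes were not tested. The share of all genes called under each setting is not given here. A rise or fall in these counts is therefore not a result about the members. DESeq2 called 2 members with atropine at 4 h, 1 with pirenzepine at 4 h, 1 with ADTN at 4 h, 2 in the 4 injected groups at 4 h, 1 in recovery against untreated at 4 h and 1 at 24 h, 1 in recovery against FDM at 24 h, 3 with atropine at both times, 1 in the injected groups against untreated at both times, and 2 for any difference among the drugs at 4 h. With RLE factors, with transcripts summed or with the vessel score, 1 member passed in recovery against untreated at both times, and with the vessel score 1 passed with TPMPA at 4 h. With no filter on low counts, 1 passed in that recovery comparison, 0 in recovery against FDM and 1 in the injected groups against FDM, all at both times. With the fit limited to the groups compared, 1 passed with atropine at 4 h, 2 with TPMPA at 24 h, 1 in recovery against untreated at 24 h, 1 at both times, and 1 in the injected groups against FDM at both times. With the small-RNA score, 1 passed with pirenzepine at 4 h, 1 in recovery against untreated at 4 h, 2 with atropine at both times and 0 in recovery against FDM at both times. With log2 total count, 1 passed in recovery against untreated at 4 h, 1 against FDM at 4 h and 1 at 24 h, and 1 for any difference among the drugs at 24 h. With the replicate block, 1 passed with pirenzepine at 4 h, 1 in the injected groups at 4 h and 1 with atropine at 24 h. With that block 3 also passed in recovery against untreated and 1 against FDM at 24 h. It gave 2 with atropine at both times and 3 among the drugs at 4 h. Whether libraries with the same number share a batch was not tested. Leaving out 1 library, the counts ran from 0 to 3 (ADTN at 4 h; atropine at both times), 0 to 2 (pirenzepine and the injected groups at 4 h; atropine at 24 h; recovery against untreated at both times), 2 to 4 (pirenzepine at both times), 1 to 3 (injected groups against FDM at both times) and 0 to 1 (atropine and recovery against untreated at 4 h; pirenzepine and recovery against untreated at 24 h; ADTN, recovery against FDM and injected against untreated at both times). In the covariation, r for HSPH1 and HSP90AA1 was 0.78 in the libraries low in small RNA; for HSPA8 and DNAJA1 it was -0.02 in the high ones and 0.67 with depth removed; for HSPA5 and HSP90B1 it was 0.39 and 0.96 in the high and low ones, for CCT2 and CCT5 0.24 and 0.88, and for HSPA5 and HSPH1 0.87 in the low ones. The low and high sets drew on different groups, so small-RNA level and condition cannot be told apart there. Depth limits HSPB9 and HSPB1 most, with as few as 14 and 12 counts in a library.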

Other observations

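Pirenzepine at 4 h, replicate 2, held the highest level of 7 members, which were HSPD1, CCT2, CCT5, CCT6, DNAJA2, CCT4 and CCT8. Recovery at 4 h, replicate 2, held the highest level of 5 members, the ER chaperones HSPA5, DNAJC3 and DNAJB9 together with DNAJC11 and HSPB1. These libraries were picked out after their values were seen.

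Marker lists of other cells were counted in the both-time average of recovery against untreated. No gene passed among 6 leukocyte, 2 red blood cell, 9 pigment epithelium, 5 lens, 5 bipolar, 6 amacrine, 5 horizontal, 9 ganglion cell and 5 oligodendrocyte genes measured.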
